A study of Mus musculus with 12 samples.

Results

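The neurotrophin ligand genes Bdnf and Ntf3, the Trk receptor genes Ntrk2 and Ntrk3, and Ngfr, the gene of the p75 receptor, were followed by RNA-Seq in the mouse abdominal aorta. These 5 genes, of 55092 features in the table, were picked by symbol with their values in the 4 groups already known, so their levels and differences below are descriptions without a test. The 12 male mice formed 4 groups of 3. CFS mice were CCN2 fl/fl controls without Cre, infused with saline, and CFA mice were the same genotype infused with Ang II (angiotensin II, a pressor peptide) at 500 ng/kg/min. CSS and CSA mice were CCN2 SMCΔ mice, which carry CCN2 fl/fl and Myh11-Cre-ERT2, infused with saline and with Ang II, respectively. All 4 groups carried the floxed allele, received 5 doses of tamoxifen from 8 weeks of age with a washout of 2 weeks, and were sampled on day 7 of infusion. The Myh11 promoter drives the Cre in smooth muscle cells (SMCs) in general, not only those of the aorta, and the controls lacked the Cre as well as the deletion.

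Neurotrophins are secreted growth factors made as longer proforms, which proteases such as furin cleave to the mature ligand. Mature ligands bind Trk receptor tyrosine kinases, with Bdnf and Ntf5 preferring TrkB (Ntrk2), and Ntf3 preferring TrkC (Ntrk3), while p75 (Ngfr) binds all of them and, together with sortilin (Sort1), their proforms. They are best known for the survival and growth of neurons, sympathetic fibres of arteries included, and vascular SMCs also make ligands and receptors of the family.

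The values are labelled FPKM, a measure that scales a gene's fragments by exon length and library size. As deposited they carry an undescribed scaling that gives every library the same median log ratio. Exon length here is that of all annotated transcripts of a gene together, so levels of different genes compare only per such length. From the exon lengths, 14555541 to 23102775 fragments per library were recovered. The table held 14676 features with at least 1 FPKM in at least 3 libraries, and these were tested. Differences are given as log2 fold changes of FPKM + 0.1 with the standard error (SE) of the fit, which understates the change of genes at low FPKM. A feature was called when its adjusted p was under 0.05 and its absolute log2 fold change was over 1.5. The targeted gene, Ccn2, was at 254.9 to 398.6 FPKM in CSA and at 563.5 to 1105 FPKM in CFA (log2 fold change -1.41, SE 0.34, limma adjusted p = 0.00622; two-sided exact permutation p = 0.1, the smallest that 3 against 3 mice can give). Between CSS and CFS it overlapped (log2 fold change -0.40, SE 0.34; exact permutation p = 0.4).

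All 10 smooth muscle markers examined were called lower in CSA than in CFA, with summed levels of 823 to 977 FPKM in CSA against 5699 to 8597 in CFA, 7912 to 8964 in CSS and 8413 to 10561 in CFS. Of 10 macrophage markers, 8 were called higher in CSA than in CFA, with sums of 2358 to 2531 against 338 to 720 FPKM. CSA mouse 03 stood apart from the other CSA mice, at a root mean square difference of 1.20 and 1.21 on the log2 scale, while these were 0.505 apart. Skeletal muscle markers summed to 195 FPKM in CFS mouse 68 and 321 in CSS mouse 55, against 3.56 to 6.38 in the other libraries. In whole aorta, fewer cells of a type and less transcript per cell cannot be told apart.

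All 5 genes passed the filter. Ntf3 reached 1 FPKM in all 12 libraries, Ntrk2 and Ntrk3 in the 9 libraries outside CSA, and Bdnf in 7. Ngfr passed with 3 libraries, the fewest allowed, which were CFS mouse 70 and CSA mice 01 and 03.

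Ntf3 (ENSMUSG00000049107, GRCm38 chromosome 6, 126101412 to 126166910, minus strand) encodes neurotrophin-3, the ligand of TrkC. Its mean FPKM was the highest of the 5 genes in every group but CSA. That rank depends on exonic lengths, which were 1714 bases for Ntf3 and 30170 for Ntrk3. In CFS mouse 68, Ntrk3 held 6795 fragments and Ntf3 held 627, so the rank is not one of transcript numbers. The level of Ntf3 was 19.8, 20.1 and 18.9 FPKM in CFS mice 68, 69 and 70. It was 15.2, 14.9 and 20.6 FPKM in CSS mice 54, 55 and 56, and 19.7, 15.9 and 17.5 FPKM in CFA mice 71, 72 and 74. In CSA mice 01, 02 and 03 it was 1.15, 2.45 and 2.44 FPKM, so that the 3 CSA mice lay below the other 9 and those 9 overlapped between groups. The lowest value rests on 40 fragments, with an exact Poisson 95% interval of 0.821 to 1.57 FPKM that covers counting error only. The mean of CSA was 8.82-fold lower than that of CFA (log2 fold change -3.15, SE 0.25) and 8.41-fold lower than that of CSS (-3.07, SE 0.25). The differences between CSS and CFS (-0.22) and between CFA and CFS (-0.15) were within the SE of 0.25.

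Bdnf (ENSMUSG00000048482, chromosome 2, 109674700 to 109727007, plus strand) encodes brain-derived neurotrophic factor, the main ligand of TrkB. It shares 14.4% of its exonic bases with the antisense gene Gm45346, and without strand the fragments of both cannot be told apart. Its level was 0.740, 0.937 and 0.616 FPKM in CFS mice 68, 69 and 70, and 1.12, 1.43 and 0.909 FPKM in CSS mice 54, 55 and 56. It was 1.14, 1.88 and 0.766 FPKM in CFA mice 71, 72 and 74. In CSA mice 01, 02 and 03 it was 1.77, 1.64 and 3.23 FPKM. The highest CFA mouse lay above the 2 lower CSA mice, whereas all 3 CSA mice lay above the CSS mice. The log2 fold change was 0.78 between CSA and CFA (SE 0.35) and 0.84 between CSA and CSS (SE 0.35). It was 0.49 between CSA and CFA without CSA mouse 03, and 0.20 without CFS mouse 70, CFA mouse 74 and CSA mouse 03 together, an alternative chosen after the data were seen.

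The ratio of both ligands differed between groups. In FPKM, Ntf3 exceeded Bdnf 21.4- to 30.7-fold in CFS, 10.4- to 22.7-fold in CSS and 8.48- to 22.9-fold in CFA. In CSA the ratio of Ntf3 to Bdnf was 0.648 to 1.49, with a median of 0.754, below every mouse of the other groups.

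Ntrk3 (ENSMUSG00000059146, chromosome 7, 78175959 to 78738012, minus strand) encodes TrkC. The annotation lists 20 transcripts, of which 6 are coding with 248 to 2592 coding bases, and FPKM per gene does not separate receptors with a kinase from truncated ones. Its level was 12.2, 14.1 and 10.0 FPKM in CFS mice 68, 69 and 70, and 8.39, 9.98 and 9.28 FPKM in CSS mice 54, 55 and 56. It was 8.31, 5.40 and 10.1 FPKM in CFA mice 71, 72 and 74. In CSA mice 01, 02 and 03 it was 0.434, 0.431 and 0.422 FPKM, at 195 to 276 fragments per library. The CSA mice differed little among themselves (SD 0.00651 around a mean of 0.429 FPKM) and lay far below every other mouse. The exact Poisson 95% interval of CSA mouse 03 is 0.365 to 0.485 FPKM, wider than their spread. Their closeness is therefore not read as low variation between mice. The mean was 18.5-fold lower in CSA than in CFA (log2 fold change -3.88, SE 0.21), which ranks 87 of the 14676 tested features from the lowest. It was 21.5-fold lower in CSA than in CSS (-4.14, SE 0.21). The CSS mice also lay below the CFS mice, although closely (log2 fold change -0.38, SE 0.21), and CFA overlapped CFS (-0.63, SE 0.21).

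Ntrk2 (ENSMUSG00000055254, chromosome 13, 58806569 to 59133970, plus strand) encodes TrkB, with 7 coding transcripts of 1398 to 2463 coding bases that are likewise summed here. Its level was 3.88, 4.71 and 5.54 FPKM in CFS mice 68, 69 and 70. It was 2.55, 2.44 and 1.84 FPKM in CSS mice 54, 55 and 56, and 2.51, 2.54 and 4.22 FPKM in CFA mice 71, 72 and 74. In CSA mice 01, 02 and 03 it was 0.758, 0.689 and 0.690 FPKM. Ntrk2 thus showed 3 tiers, with CFS the highest, CSS and CFA overlapping in the middle, although CFA mouse 74 reached into the CFS range, and CSA the lowest. The mean of CSA was 4.34-fold lower than that of CFA (log2 fold change -1.93, SE 0.23) and 3.20-fold lower than that of CSS (-1.54, SE 0.23). Under saline the mean of CSS was 2.07-fold lower than that of CFS (-1.02, SE 0.23). In the controls, the mean of CFA, under Ang II, was 1.52-fold lower than that of CFS (-0.62, SE 0.23). With a pseudocount of 1 the CSA to CFA difference was -1.23, under the fold limit.

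The balance of the Trk transcripts also differed in CSA. In FPKM, Ntrk3 exceeded Ntrk2 1.81- to 3.14-fold in CFS, 3.29- to 5.05-fold in CSS and 2.13- to 3.31-fold in CFA. In CSA the ratio was 0.573 to 0.626. The fragments of Ntrk3 and Ntrk2 there were 266 and 297, 276 and 282, and 195 and 204 in mice 01, 02 and 03. Exonic lengths were 30170 and 19292 bases, so only the difference of the ratio between groups is read.

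Ngfr (ENSMUSG00000000120, chromosome 11, 95568818 to 95587735, minus strand) encodes p75, a receptor of the tumour necrosis factor receptor family, and has 1 annotated transcript. Its level was 0.377, 0.310 and 1.90 FPKM in CFS mice 68, 69 and 70, and 0.328, 0.298 and 0.267 FPKM in CSS mice 54, 55 and 56. It was 0.293, 0.315 and 0.999 FPKM in CFA mice 71, 72 and 74, and 1.37, 0.848 and 1.10 FPKM in CSA mice 01, 02 and 03. The CSA mice overlapped CFA and CFS through CFA mouse 74 and CFS mouse 70, and lay above all CSS mice. The lower libraries rest on 19 to 24 fragments, and the exact Poisson 95% interval of CSS mouse 55 is 0.179 to 0.465 FPKM. The log2 fold change was 1.07 between CSA and CFA (SE 0.61), and 1.56 without CFA mouse 74. Between CSA and CSS it was 1.58 (SE 0.61). The difference between CSS and CFS was -0.88 (SE 0.61), and -0.16 without CFS mouse 70. The difference between CFA and CFS was -0.38 (SE 0.61), and it turned to 0.35 without CFS mouse 70.

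Between CSA and CFA, Ntf3 and Ntrk2 were called lower, while Ngfr overlapped and was not called. The stretches before the outermost annotated starts of Ntf3, Ntrk2 and Ngfr are shown. They come from RefSeq on GRCm38.p6, which gave a window for 4 of the 5 genes, Ntrk3 not among them, and are written 5′ to 3′ on the strand of the gene, with each CACCC or its reverse complement GGGTG in capitals.
Ntf3: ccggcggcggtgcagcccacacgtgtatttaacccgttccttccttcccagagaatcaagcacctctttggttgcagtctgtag
Ntrk2: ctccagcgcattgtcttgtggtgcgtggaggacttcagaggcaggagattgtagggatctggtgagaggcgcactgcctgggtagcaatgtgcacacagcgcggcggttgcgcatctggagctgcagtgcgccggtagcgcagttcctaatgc
Ngfr: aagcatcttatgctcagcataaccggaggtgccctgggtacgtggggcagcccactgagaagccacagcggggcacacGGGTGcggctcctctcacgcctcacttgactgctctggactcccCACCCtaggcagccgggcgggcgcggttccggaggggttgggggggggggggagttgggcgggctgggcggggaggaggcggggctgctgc
The Ntf3 stretch is chr6:126166911-126166994 on the minus strand, the Ntrk2 stretch is chr13:58806319-58806471 on the plus strand and the Ngfr stretch is chr11:95587736-95587948 on the minus strand. They hold 84, 153 and 213 bases with a GC content of 56%, 60.8% and 70.9% and 5, 10 and 14 CpG dinucleotides. CACCC is the core bound by KLF factors, and these letters, on either strand, occur in 52% of the 32851 RefSeq windows over the 250 bases before the start. Over the same 250 bases they occurred 3 times for Ngfr, once in the outer of the 2 Ntf3 windows and 0 times for Ntrk2. In the 7 Bdnf windows, in order of position, they occurred 1, 1, 0, 1, 2, 0 and 1 times. The CArG box of SRF was found in 1.47% of all windows, GTGGGAA of RBPJ in 5.42% and GGAATG of TEAD factors in 12.6%, each searched on both strands. None of these lay in the Ntf3, Ntrk2 or Ngfr windows, and of the 7 Bdnf windows 2 held GGAATG. A match of letters is no evidence of binding, and the lack of one says only that these letters are not in this window.

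**Figure D1:**
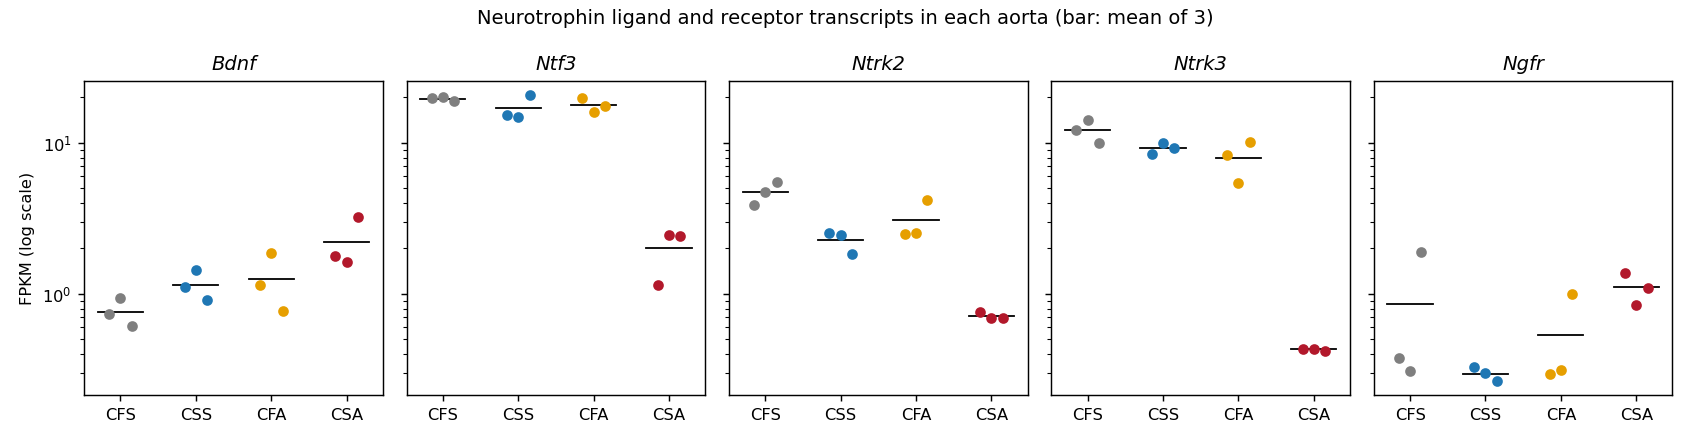
FPKM (log scale) of the 5 genes in each of the 12 aortas by group, with points for mice in order of their number and bars for the mean of 3. Ntf3, Ntrk2 and Ntrk3 are lowest in the 3 CSA mice, Bdnf is at 1.64 FPKM or more there, and Ngfr is split within CFS and CFA by 1 high mouse each.

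Of the 5 genes, 3 were called between CSA and CFA, all lower, where 17.2% of the tested features were called, 8.95% higher and 8.27% lower. The same 3 genes, Ntf3, Ntrk2 and Ntrk3, were called lower between CSA and CSS, against 20.3% of features called, 10.9% higher and 9.36% lower. None of the 5 was called between CSS and CFS or between CFA and CFS, where 0.0136% and 0.0273% of features were called. Ntf3 and Ntrk3 were also called for the interaction, the genotype difference under Ang II minus that under saline (-2.92, SE 0.35, and -3.50, SE 0.30), against 15.2% of features. These counts restate the values on which the genes were picked, and nothing is read from them. Groups did not overlap for 3 of the 5 genes between CSA and CFA (48.5% of all tested features), for all 5 between CSA and CSS (55.4%), for Ntrk2 and Ntrk3 between CSS and CFS (20.4%) and for 0 of 5 between CFA and CFS (20.2%). CSA against CFA and CSA against CSS share the CSA mice, and the saline and Ang II comparisons share the other groups in the same way.

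**Figure D2:**
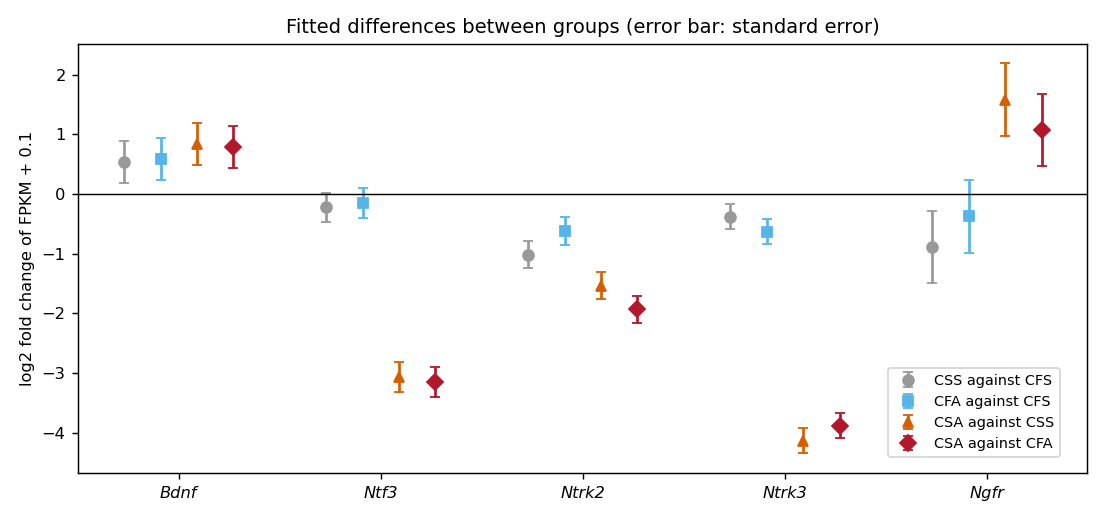
Log2 fold changes of FPKM + 0.1 for the 5 genes in 4 comparisons, with points for the fitted value and bars for its standard error. The comparisons with CSA give -3.15 and -3.07 for Ntf3 and -3.88 and -4.14 for Ntrk3, and the comparisons without CSA lie within 1.02 of 0 for all 5 genes.

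In FPKM, the order of levels changed in CSA. This order depends on exonic lengths of 1714 bases for Ntf3, 6217 for Bdnf, 19292 for Ntrk2, 30170 for Ntrk3 and 3446 for Ngfr. It may therefore differ from the order of transcript numbers. In CFS, CSS and CFA, Ntf3 exceeded Ntrk3 and Ntrk3 exceeded Ntrk2 with ranges that did not overlap. Bdnf and Ngfr were the lowest in these groups, separate from Ntrk2, and overlapped with each other except in CSS. In CSA the order was led by Bdnf at a mean of 2.22 FPKM, Ntf3 at 2.01 and Ngfr at 1.11 FPKM, each overlapping with the next in range. Ntrk2 at 0.712 and Ntrk3 at 0.429 FPKM were the lowest, each separate from the next. In fragments, the CSA libraries held 195 to 276 for Ntrk3 and 204 to 297 for Ntrk2. They held 216 to 308 for Bdnf, 58 to 96 for Ngfr and 40 to 89 for Ntf3.

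The low values of Ntf3, Ntrk2 and Ntrk3 stand in the CSA libraries, where the markers of several cell types were lower than in CFA. Beside the 10 smooth muscle markers, 5 of 10 adipocyte markers, 3 of 10 endothelial markers and 2 of 7 pericyte markers were called lower, and 1 endothelial marker was called higher. Their sums were 76.1 to 119 FPKM in CSA against 162 to 395 in CFA for adipocytes, 215 to 269 against 335 to 600.1 for endothelium, and 279 to 296 against 850.1 to 1522 for pericytes. Fibroblast markers summed higher in CSA, at 5645 to 6651 FPKM against 3894.5 to 4321 in CFA. Of these 10 markers, 1 was called higher and 1 lower. Macrophage markers were also higher, as given above. The part of any of these cell types in the differences was not tested. Set against 1000 FPKM of the summed smooth muscle markers, these 3 genes differed from each other. Ntf3 was at 1.26, 2.51 and 2.96 FPKM per 1000 in the CSA mice and at 2.51, 1.85 and 3.08 in the CFA mice, which overlapped. Ntrk3 was at 0.475, 0.441 and 0.513 in CSA and 1.06, 0.629 and 1.78 in CFA, so that CSA was below. Ntrk2 was at 0.830, 0.705 and 0.839 in CSA and 0.319, 0.295 and 0.740 in CFA, so that CSA was no longer below. Acta2 made up 68.1% to 83.1% of these marker sums. Leaving Acta2 out of the sums was an alternative chosen after seeing the data. Ntrk3 was then at 2.39, 2.13 and 3.03 in CSA and 3.98, 2.71 and 5.56 in CFA. These overlapped through CSA mouse 03 and CFA mouse 72, so the full separation of CSA from CFA for Ntrk3 rested on Acta2. All CSA mice still lay below the CSS and CFS mice for Ntrk3. Ntf3 still overlapped without Acta2. Ntrk2 was then at 4.177, 3.397 and 4.953 in CSA and 1.201, 1.275 and 2.318 in CFA. All CSA mice thus lay above the CFA, CSS and CFS mice for Ntrk2 without Acta2. These ratios are descriptions, since marker levels can change within a cell as well as with the number of cells.

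Ngfr was highest in the 5 libraries in which Th and Dbh, a pair of sympathetic neuron markers, were above 0. Th and Dbh, enzymes of noradrenaline synthesis, were listed at 0 in CFS mice 68 and 69, all CSS mice and CFA mice 71 and 72. In CFS mouse 70, CFA mouse 74 and CSA mice 01, 02 and 03, Th was at 0.589, 0.10, 0.50, 0.399 and 0.773 FPKM and Dbh at 3.06, 0.666, 1.43, 0.665 and 7.66 FPKM. A library at 0 allows up to 3 fragments. Of the whole list of 14 neuron markers, 12 had a higher mean in CSA than in CFA and 2, Stmn2 and Uchl1, a lower one. Tubb3, a neuronal tubulin, was at 5.07 to 9.36 FPKM in CSA and 0.286 to 2.36 FPKM in the other groups. Gap43, a growth cone protein, had means of 3.51 FPKM in CSA and 1.21 FPKM in CFA, and Slc18a2, the vesicular monoamine transporter, had means of 2.13 and 0.738 FPKM. Stmn2 and Uchl1, neuronal proteins above 0 in every library, had means of 1.3 against 3.07 FPKM and 14.4 against 31.8 FPKM. Of the 7 neuron markers tested, 1 was called higher and 0 lower between CSA and CFA, while Dbh, Slc18a2 and Prph passed the filter only with their CSA libraries. The summed level of the list was 30.7 to 46.2 FPKM in CSA and 30.5 to 43.5 in CFA, but Uchl1 made up 29.3% to 87.1% of it. Without Uchl1, also left out after seeing the data, the sums were 14.0 to 32.6 FPKM in CSA, 5.42 to 9.40 in CFA, 6.19 to 6.92 in CSS and 2.56 to 15.8 in CFS. Of 12 markers of Schwann cells, which also carry p75, 10 were tested and 0 called, with sums of 29.9 to 39.1 FPKM in CSA and 27.3 to 35.9 in CFA. The part of nerve tissue in the Ngfr values was not tested.

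**Figure D3:**
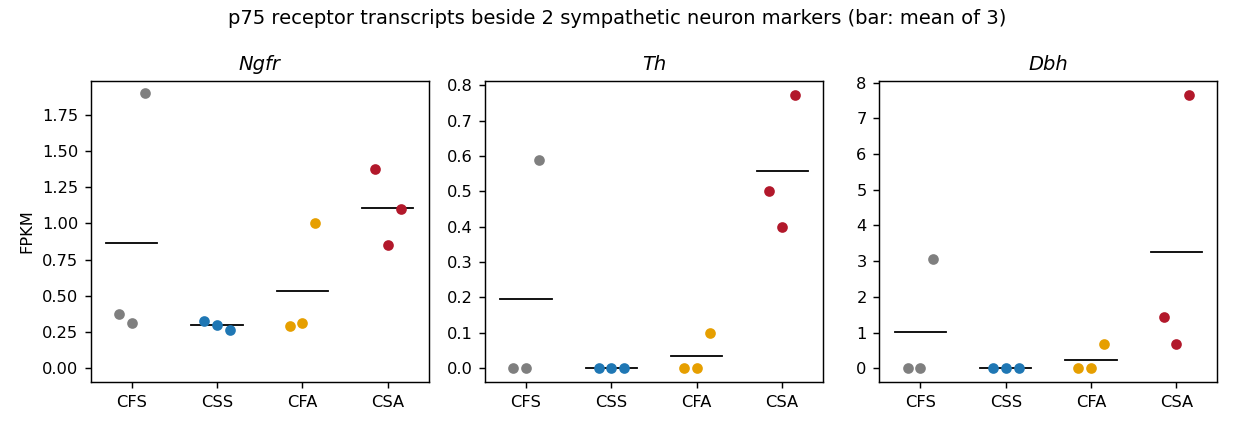
FPKM of Ngfr, Th and Dbh in each aorta by group, with points for mice and bars for the mean of 3. The same 5 libraries, CFS mouse 70, CFA mouse 74 and the 3 CSA mice, are highest for all 3 genes, and Th and Dbh are at 0 in the other 7.

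The rest of the pathway was described with a list of 58 genes in 6 roles, of which 48 were tested. Between CSA and CFA, 2 rose and 6 fell, with a median log2 fold change of -0.28 against -0.04 over all tested features. The 8 called genes are 16.7% of the 48, near the 17.2% of all tested features, so that the list was called about as often as features in general. A further 40 were not called. The list was chosen with results of these data known.

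Ntf5, a second ligand of TrkB, was not among the tested genes. It was listed at 0 in most libraries and did not exceed 0.213 FPKM.

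Sort1 (sortilin, the partner of p75 for proforms) was at 17.3 to 26.5 FPKM in CFA and 3.32 to 4.56 FPKM in CSA (log2 fold change -2.39, SE 0.17, limma adjusted p = 2.25e-06). It was the 1 gene called of 3 tested in its family. Pcsk6, a proprotein convertase, fell from 8.72 to 14.7 FPKM in CFA to 1.90 to 3.22 FPKM in CSA (-2.32, SE 0.22, limma adjusted p = 1.51e-05). Furin, the convertase best known for this step, had a log2 fold change of 0.00 (SE 0.33, adjusted p = 0.996), and 5 of 6 processing genes tested were not called.

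Of 9 p75 partners tested, Tnfrsf19 (TROY, a p75-like receptor) fell, from 0.487 to 1.51 FPKM in CFA to 0 to 0.187 FPKM in CSA (-2.37, SE 0.52, limma adjusted p = 0.00397). It was no longer called without CFS mouse 70, CFA mouse 74 and CSA mouse 03 (-1.55, adjusted p = 0.0516) or with a pseudocount of 1 (-0.78). Of 22 Trk adaptors tested, the insulin receptor substrates Irs1 (-1.75, SE 0.17, adjusted p = 1.62e-05) and Irs2 (-1.71, SE 0.34, adjusted p = 0.00223) fell. Both are better known for insulin signalling than for Trk receptors. The other 20 adaptors were not called.

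Genes that respond to Trk signalling in neurons moved in both directions. Dusp6, a phosphatase that acts on ERK kinases, rose from 9.09 to 10.9 FPKM in CFA to 31.4 to 39.5 FPKM in CSA (log2 fold change 1.79, SE 0.15, limma adjusted p = 7.08e-06), and Egr2, a transcription factor of early response, rose by 1.68 (SE 0.34, adjusted p = 0.00224). Npas4, an activity-dependent transcription factor, fell by 2.10 (SE 0.27, adjusted p = 0.000112). Egr2 was at 1.37, under the fold limit, without CFA mouse 74. The other 5 tested genes of this role were not called, and many of these genes respond to other receptors too.

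**Figure D4:**
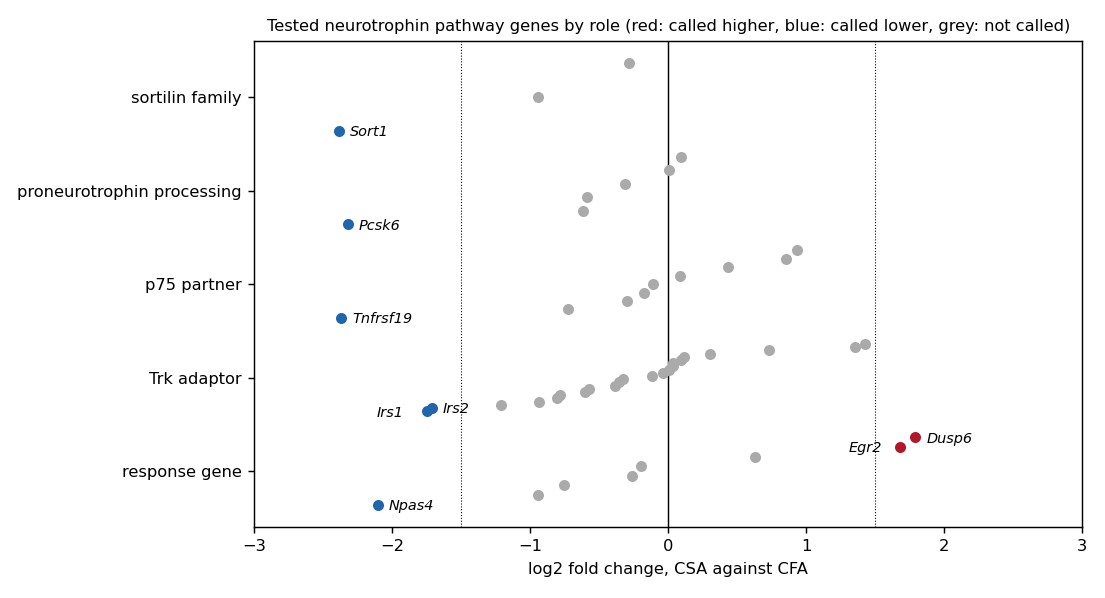
Log2 fold changes between CSA and CFA of the 48 tested pathway genes by role, with 1 point per gene and dotted lines at the limit of 1.5. Dusp6 and Egr2 lie on the right, Sort1, Pcsk6, Tnfrsf19, Irs1, Irs2 and Npas4 on the left, and the grey points that were not called lie between the lines.

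The list held 0 called genes between CSS and CFS, both under saline (8 at an unadjusted p under 0.05 in limma). Between CFA and CFS, which is Ang II against saline in the controls, it also held 0 (10). Between CSA and CSS, 2 rose and 9 fell, which is 22.9% of the list against 20.3% of all tested features. The interaction was called for 4 of the 48, with 1 higher and 3 lower, which is 8.33% against 15.2%. Neither share is a result about the list.

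The GDNF family of neurotrophic factors, which signals through the Ret kinase and GFRα co-receptors, was set beside the neurotrophins. Of its 9 genes 7 were tested, and 2 rose and 3 fell between CSA and CFA, where 8.95% of all tested features were called higher and 8.27% lower. Neurturin (Nrtn), a ligand, was at 24.3 to 45.6 FPKM in CFA and at 8.95, 9.63 and 0.383 FPKM in CSA (log2 fold change -3.39, SE 0.90, limma adjusted p = 0.0116). Without CSA mouse 03, which holds the lowest value, it was -1.96. Its co-receptor Gfra2 fell by 1.61 (SE 0.28, adjusted p = 0.000891), and Gfra4 fell by 1.93 (SE 0.33, adjusted p = 0.000859). Gfra2 was under the fold limit without CFA mouse 72 (-1.40) or CSA mouse 03 (-1.41), and Gfra4 without CSA mouse 03 (-1.49). Ret rose by 1.53 (SE 0.46, adjusted p = 0.0204) and Gfra1 by 1.97 (SE 0.50, adjusted p = 0.0089). Both passed the filter only with their CSA libraries, since Ret reached 1 FPKM in 2 CSA and 2 CFS mice and Gfra1 in 3 CSA mice and 1 CFA mouse, so these calls are no independent support for a direction. The call of Gfra1 was lost without CSA mouse 01 (adjusted p = 0.0728), and that of Ret without CFA mouse 71 (0.0739), CFA mouse 72 (0.0511), CSA mouse 02 (0.0687) or CSA mouse 03 (0.0582).

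For each of the 5 genes, the 3 tested genes with the nearest pattern over the 12 libraries were found, by the root mean square difference of log2 values centred on each gene's mean. For Ntrk3 they were Xk (0.20), Dgkb (0.22) and Itga8 (0.23), the last an integrin subunit at a mean of 353 FPKM in CFS and 17.6 FPKM in CSA. For Ntf3 they were Fmo2 (0.22), Pkp4 (0.25) and Myom1 (0.25). For Ntrk2 they were Aldh6a1 (0.20), Aspa (0.25) and Adm (0.27). Adm, the gene of the vasodilator peptide adrenomedullin, shared the tiers of Ntrk2, with means of 28.8 FPKM in CFS, 11.2 in CSS, 18.6 in CFA and 3.78 in CSA. Bdnf lay nearest to the processed pseudogene Gm12854 (0.19), Fmn1 (0.22) and Ereg (0.22). Ngfr had more distant neighbours, with Kdr (0.37) and Zfp366 (0.41) among its 3 nearest. Among the 5 genes themselves, Ntf3 and Ntrk3 were 0.57 apart, Ntf3 and Ntrk2 0.70, Ntrk2 and Ntrk3 1.01 and Bdnf and Ngfr 1.01, while Ntrk3 and Ngfr were 2.41 apart. These distances are descriptions over libraries that share groups.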

How the data were processed

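RNA-Seq of the abdominal aorta was analysed from 12 male mice in 4 groups of 3, whose titles give group and number. Every column of the 1 table was matched to a title (0 unused). Each numbered library was taken as 1 mouse. The authors deposited FPKM per gene and library, without pooling. The submitters' processing notes name HISAT2 2.0.5, StringTie 1.3.3b, featureCounts 1.5.0-p3 and mm10. The deposited FPKM carry an undescribed scaling that gives every library the same median log ratio. Symbols, positions and exon lengths came from GENCODE M21 on GRCm38. With these lengths 98.1% to 98.5% of values under 100 fragments came out whole within 0.05, and their sum was taken as depth, with medians of 19020623 fragments in CFS, 20019938 in CSS, 22143256 in CFA and 18691853 in CSA. Intervals cover counting error only.

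Log2(FPKM + 0.1) was fitted with limma 3.58.1 (R 4.3.3; lmFit and trended, robust eBayes) as 1 mean per group, fitted to the 12 libraries together without covariates, on the 14676 features with at least 1 FPKM in at least 3 libraries, 256 of them without an Ensembl identifier. Adjustment followed Benjamini and Hochberg, separately for each comparison and over all tested features, and the fit was first tested on simulated data. Ccn2 was also tested by exact permutation of the mice, two-sided.

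The 5 genes, the pathway, GDNF and marker lists and the tests were chosen with earlier results of these data known. The text names all 5 genes, the listed genes called between CSA and CFA, the 3 nearest genes of each of the 5, and markers at 0. Furin and Ntf5 were added after their values were seen. Some genes that this rule or the lists select are not reported here and were left out of the list counts. Alternatives were pseudocounts of 1 and 0.01, no filter, a limit of 5 on mean FPKM, scaling by median ratios or totals, plain eBayes, no fold limit, limma's treat, only the groups compared, and leaving out each mouse. Leaving out sets of mice was added after the data were seen. Count tests were not used, since the table holds FPKM. Python 3.11.15 with numpy 2.4.6, pandas 2.3.3, scipy 1.17.1 and matplotlib 3.10.9 served for tables and plots.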

Additional observations from a re-analysis of the deposited data

Results flagged for a closer look

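For 7 listed genes outside the 5 described, the genotype difference under Ang II differed from that under saline by the interaction term of the limma fit, on the log2 scale and past the fold limit of 1.5. Among neurotrophin pathway genes the difference was 1.87 for Dusp6 (SE 0.21, adjusted p = 0.000165). It was -2.0 for Sort1 (SE 0.23, adjusted p = 0.000198), -1.90 for Pcsk6 (SE 0.31, adjusted p = 0.00131) and -2.32 for Npas4 (SE 0.38, adjusted p = 0.00129). In the GDNF family it was -4.33 for Nrtn (SE 1.28, adjusted p = 0.0286), -1.72 for Gfra2 (SE 0.40, adjusted p = 0.00867) and -1.91 for Gfra4 (SE 0.47, adjusted p = 0.0123). The value for Nrtn was -2.90 without CSA mouse 03, and its adjusted p was over 0.05 in 7 of the fits that left out another mouse.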

How the results depend on the processing

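No paired analysis was possible because the mouse numbers differ between the groups. The log2 fold changes of the 5 genes between CSA and CFA kept their direction under every alternative run. With a pseudocount of 1 they were -2.67 for Ntf3, -1.23 for Ntrk2 and -2.61 for Ntrk3, and without CFS mouse 70, CFA mouse 74 and CSA mouse 03 that of Bdnf was 0.20, each moved by more than 1 SD between replicates. Leaving out each mouse gave -3.32 to -2.81 for Ntf3, -2.06 to -1.69 for Ntrk2, -4.13 to -3.68 for Ntrk3, 0.49 to 1.09 for Bdnf and 0.81 to 1.56 for Ngfr. The 8 pathway genes called between CSA and CFA became 4 with a pseudocount of 1, 4 at a mean FPKM of at least 5, 23 without a fold limit, 2 with limma's treat and 8 to 9 when each mouse was left out. Between CSA and CSS the count of 11 became 7, 5, 26 and 2 with a pseudocount of 1, at a mean FPKM of at least 5, without a fold limit and with treat, and 8 to 11 when each mouse was left out. For the interaction the count of 4 became 12 without a fold limit and 0 with treat, and 4 to 7 when each mouse was left out, with 7 without CFS mouse 69. A higher mean and treat test fewer features or a stricter hypothesis, and the cause of the other shifts was not tested. For the 13 pathway and GDNF genes called between CSA and CFA, 304 values under alternatives gave 273 calls with the same direction, 31 with the same direction but no call, and 0 reversed. CSA had the lowest median depth, and Ngfr at 19 to 24 fragments in 7 libraries is the least precise of the 5 genes.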
